A study of Mus musculus with 22 samples.

Results

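Messenger RNA was compared between mouse embryonic stem cells depleted of 2 ribosomal proteins at once and control cells. The cells were E14, a mouse embryonic stem cell line grown with leukemia inhibitory factor on gelatin. Small interfering RNAs (siRNAs) against Rpl14 and Rpl11 were given together, and the cells were harvested 3 days later. Every library of the series received a pair of siRNAs, and the control had siNT in both places. The labels do not expand the letters NT. The libraries were chosen by their titles: in the first table of values, 2 with siRpl14 plus siRpl11 and 2 with siNT plus siNT, and in a second table, 1 with both siRNAs and 2 controls. That is 7 of the 22 libraries of the series. The 2 siRpl14 plus siNT and 2 siRpl11 plus siNT libraries of the first table show where the pair differed from a single siRNA, and they also enter the fit against siNT, through its estimate of the spread and its filter on low values. All come from 1 cell line, and the labels do not say that replicates were separate cultures, so p-values measure the spread between these libraries, which may be technical. Bulk RNA gives an average over cells, so fewer cells of a kind and less RNA per cell cannot be told apart.

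Rpl14 and Rpl11 are proteins of the large (60S) subunit of the cytosolic ribosome. Rpl11 has a second known role. Together with Rpl5 and 5S ribosomal RNA it can bind Mdm2, the ubiquitin ligase that keeps p53 low, so depletion of many other large-subunit proteins is known to raise p53 in a way that needs Rpl11. Embryonic stem cells in leukemia inhibitory factor hold a naive pluripotent state, from which they can move to a primed state like the later epiblast. Such cultures also hold rare cells that express genes of the 2-cell embryo (2C-like cells).

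Values are FPKM, fragment counts divided by transcript length and scaled by library size, in a way that the sources used here do not give. Of the 24819 genes of the first table, between 30.8 and 32.1% were listed at 0 in a library, and in the second 50.5 to 56.2%. The 10th percentile of values above 0 was 0.0538 to 0.0821 FPKM in the first table and 1.08 to 1.6 FPKM in the second. Replicates of a group correlated across genes of 5 FPKM or more at r = 0.975 to 0.978 in the first table and 0.809 to 0.853 in the second, where genes are not independent replicates. The second table therefore resolves small changes and low genes less finely, and read depth is unknown in both. Levels of some genes differ widely between the tables (Bysl at 17.7 and 21.04 FPKM in the controls of the first and 1025 and 1137 FPKM in those of the second), so no level was compared across them.

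Both targets were low in the libraries labelled with both siRNAs. Rpl14 stood at 1550.3 and 1417 FPKM in the siNT replicates 1 and 2 and at 232 and 524 FPKM in replicates 1 and 2 with both siRNAs, 15.6% and 35.3% of the siNT mean. The change was -2.08 ± 0.42 (SE, limma, adjusted p = 0.0086) on the log2(FPKM + 1) scale, which is used for every fold change here and understates changes of low genes. Rpl11 stood at 829 and 661 FPKM with siNT and 98.4 and 249 FPKM with both, 13.2% and 33.4% of the siNT mean, a change of -2.23 ± 0.46 (SE, limma, adjusted p = 0.00934). For both genes the 2 groups did not overlap, and replicate 1 had the lower remaining level. Neither passed without siNT replicate 1 (adjusted p = 0.0632 for Rpl14 and 0.0714 for Rpl11). In the second table Rpl14 was at 1361 and 1094 FPKM in the controls and 217 FPKM in the double-knockdown library, and Rpl11 at 907 and 773 FPKM in the controls and 199 FPKM with both. In the fit of that table the double knockdown is 1 library and groups with 2 libraries supply the spread. Both genes passed in it, at -2.49 ± 0.21 (SE, limma, adjusted p = 0.00678) and -2.07 ± 0.17 (SE, limma, adjusted p = 0.00678). Both calls were kept when any of the other 9 libraries of that fit was left out (adjusted p up to 0.0479 for Rpl14 and 0.0443 for Rpl11). Rpl14-ps1, a processed pseudogene of Rpl14, was at 39.4 and 38.5 FPKM with siNT and 5.71 and 13.7 FPKM with both, and reads may be shared between the gene and its copy.

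**Figure D1:**
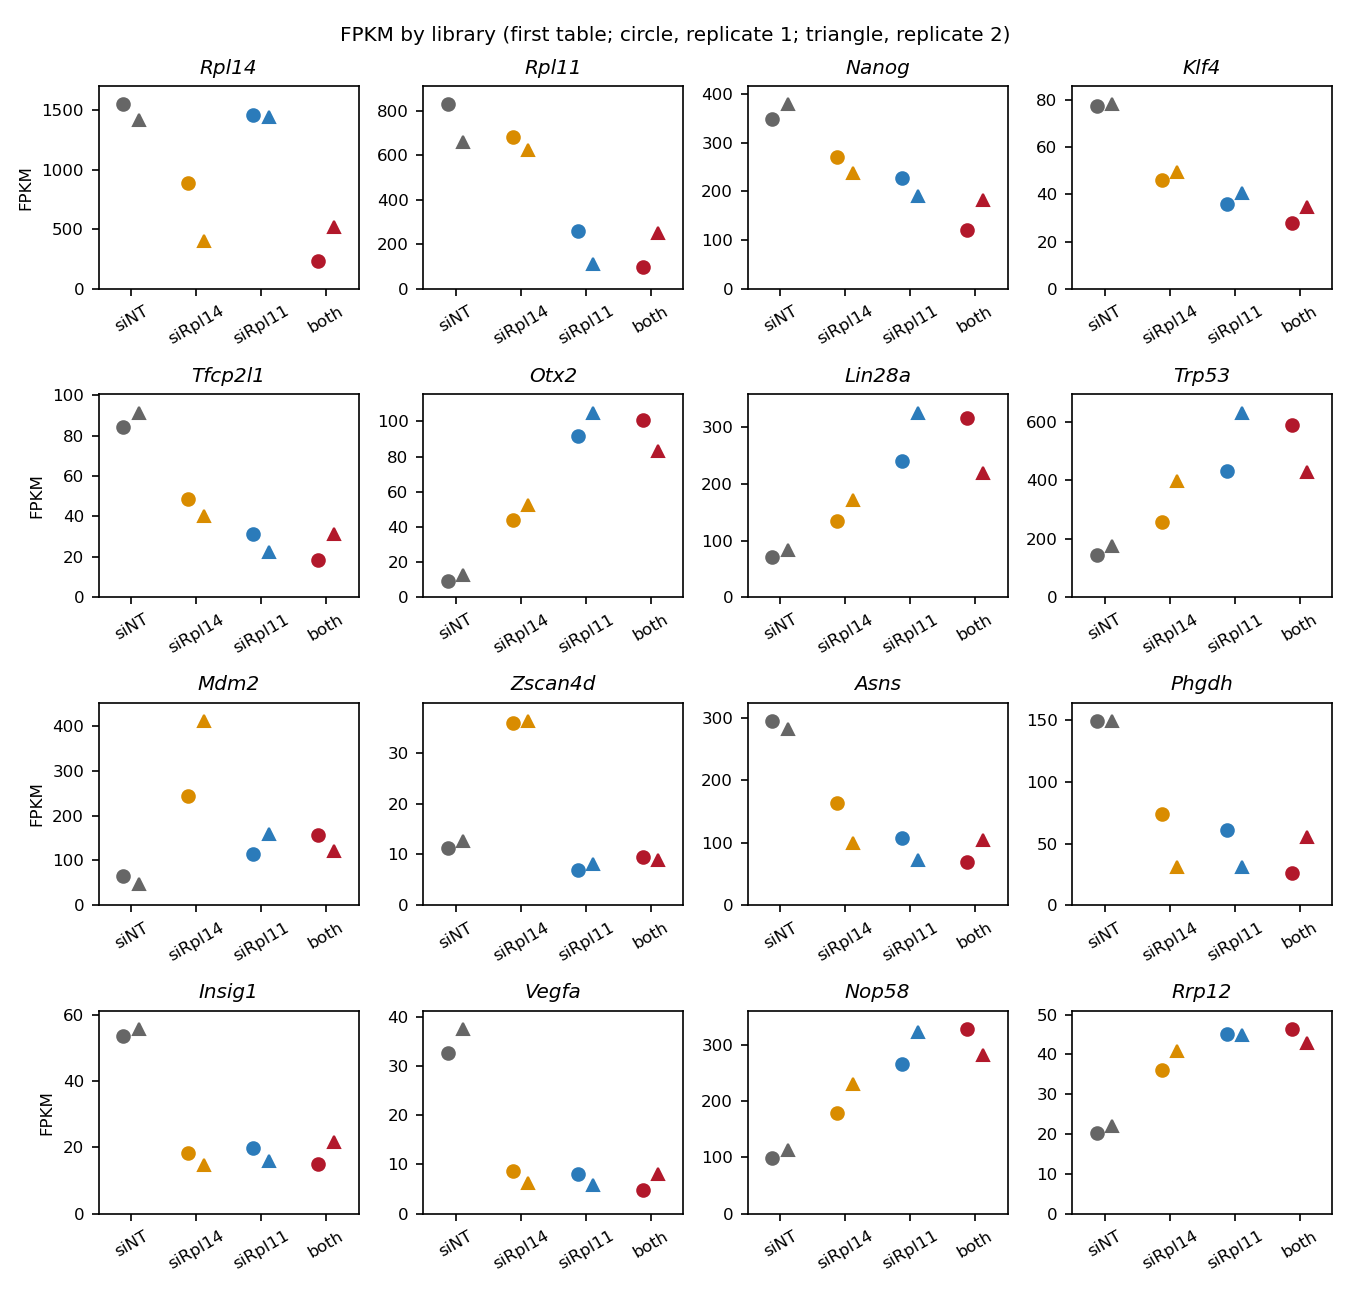
FPKM of 16 genes in the 8 libraries of the first table, by siRNA on the x axis, with each axis starting at 0; circles are replicate 1 and triangles replicate 2. Rpl14 and Rpl11 are both below the siNT values in the 2 libraries with both siRNAs, and Zscan4d is highest in the 2 siRpl14 libraries.

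The double knockdown changed a large part of the measured transcriptome. Of 12129 genes tested, 5043 passed in either direction (limma, Benjamini-Hochberg adjusted p under 0.05), which is 41.6% of all genes. Higher were 2008 genes (16.6%) and lower 3035 (25%), and 305 and 675 of them changed at least 2-fold. The median over all genes was -0.07. Rescaling the libraries moved that balance: 2517 genes were higher and 2640 lower after median-ratio rescaling and 2506 and 2325 after quantile normalization, with medians of -0.01 and 0.01. Counts of lower genes are therefore read relative to this shift. As background for single genes, the 2 groups did not overlap for 33.7% of genes in the higher direction and 43.3% in the lower.

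The count depended on single libraries. Omitting a control left 1535 (replicate 1) or 2379 (replicate 2), omitting replicate 1 of the double knockdown left 1307, and the count was 4362 to 5255 without any of the other 5. Replicate 1, in which both targets were lower, lay farther from siNT than replicate 2 in 4292 of the 5043 genes (85.1%). Among genes that rose the median difference from siNT was 0.72 in replicate 1 and 0.55 in replicate 2. Among genes that fell it was -0.81 and -0.61. The shares of 16.6% and 25% of all genes belong to the fit with all 8 libraries. Far fewer of all genes passed without either siNT library or replicate 1 of the double knockdown. List counts from those fits are therefore not to be read against these shares.

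**Figure D2:**
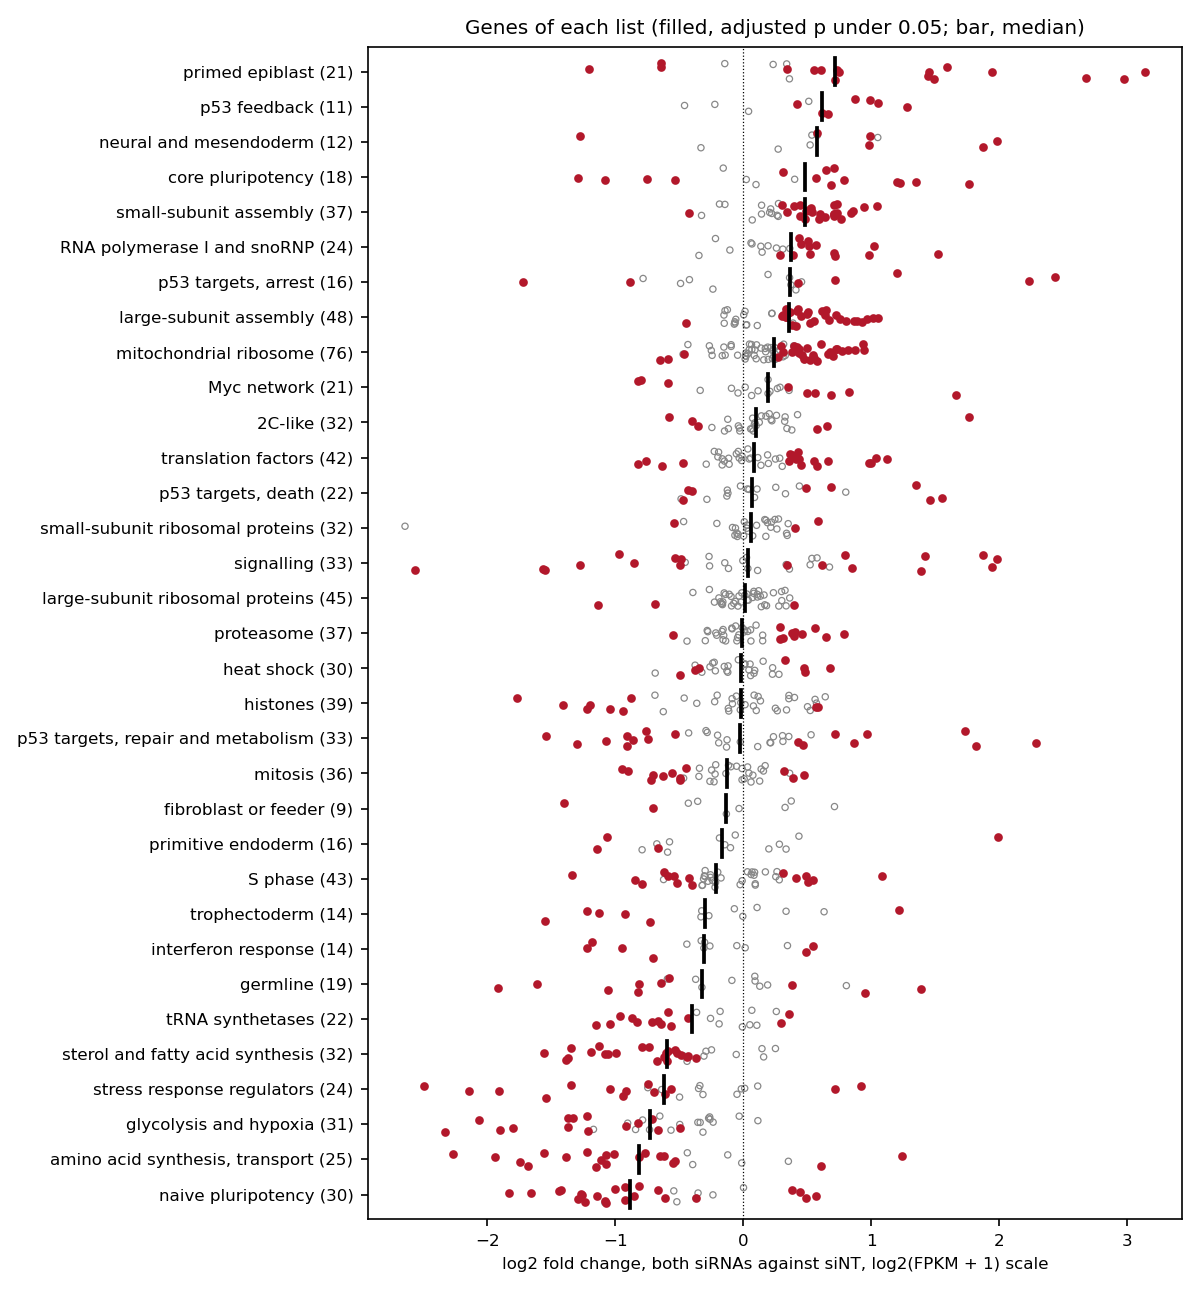
Log2 fold change of both siRNAs against siNT for each tested member of 33 gene lists (rows, number tested in brackets), first table; filled red points passed at an adjusted p under 0.05, open points did not, and black bars are list medians. Naive pluripotency and amino acid synthesis genes lie at the low end (medians -0.89 and -0.81) and primed epiblast genes at the high end (0.71).

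Few messages of other ribosomal proteins passed the test. Among 45 large-subunit protein genes other than Rpl14 and Rpl11, 1 was higher and 2 were lower (against 16.6% and 25% of all genes), and the median was 0.01. Among 32 small-subunit genes 2 were higher and 1 was lower, with a median of 0.06. Rpl3, a core large-subunit protein near the peptidyl transferase centre, was at 1859.9 and 1403 FPKM with siNT and 635 and 847 FPKM with both siRNAs. It fell, at -1.14 ± 0.28 (SE, limma, adjusted p = 0.0156), with all values of one group below the other, and lost the call without siNT replicate 1 or both-siRNA replicate 1 (adjusted p up to 0.106). Rpl10a went from 1184 and 968 to 563 and 781 FPKM (-0.69 ± 0.20, SE, limma, adjusted p = 0.0297) and the small-subunit gene Rps20 from 708 and 553 to 388 and 474 FPKM (-0.54 ± 0.18, SE, limma, adjusted p = 0.0454). Rplp2, a protein of the ribosomal stalk, and Rps27a, which is made as a fusion with ubiquitin, rose by 0.39 and 0.40. The calls of Rpl10a, Rps20, Rplp2 and Rps27a were each lost without at least 3 of the 8 libraries, among them replicate 1 of the double knockdown. These counts are fragile in both directions: without siNT replicate 1 the large-subunit count was 4 higher and 0 lower and the small-subunit count 8 and 0, and under quantile normalization they were 4 and 4, and 9 and 1.

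Rpl22 and its paralog Rpl22l1, which are known to substitute for each other in ribosomes, did not pass. Rpl22 was at 418 and 312 FPKM with siNT and 303 and 314 FPKM with both (-0.23 ± 0.16, SE, limma, adjusted p = 0.268), and Rpl22l1 at 45.6 and 47.9 FPKM with siNT and 55.9 and 103 FPKM with both (0.69 ± 0.26, SE, limma, adjusted p = 0.0666). The 2 Rpl22l1 values with both siRNAs lay above siNT but far apart. Ribosomal protein genes have many near-identical pseudogenes, and the sources used here do not say how shared reads were split. Rps27, for example, was at 139.9 and 7.34 FPKM in the 2 controls.

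Of 37 tested genes of small-subunit assembly (39 symbols listed), 24 were higher and 1 (Imp3) was lower, against 16.6% and 25% of all genes, with a median of 0.48 beside -0.07 for all genes. Of 48 genes of large-subunit assembly 31 were higher and 1 (Senp3) was lower, with a median of 0.35. Of 24 genes of RNA polymerase I, which transcribes ribosomal RNA, and of the small nucleolar ribonucleoproteins, which modify it, 13 were higher and none was lower, with a median of 0.37. The higher counts of the 3 lists were 9, 5 and 6 without siNT replicate 1, 20, 21 and 9 without siNT replicate 2, and 8, 6 and 4 without replicate 1 of the double knockdown. In the second table, 24 of the 37 small-subunit, 27 of the 48 large-subunit and 15 of the 24 polymerase I and nucleolar genes had a change above 0, and 13, 21 and 9 below. The median of all genes in that table was -0.13, so more of all genes lay below 0 than above.

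Nop58, a core protein of box C/D nucleolar particles, changed most among them. It was at 98.2 and 113 FPKM with siNT and 328 and 281 FPKM with both siRNAs (1.52 ± 0.16, SE, limma, adjusted p = 0.00264). Rrp12, a factor for maturation and export of the subunits, went from 20.3 and 21.98 to 46.3 and 42.9 FPKM (1.04 ± 0.11, SE, limma, adjusted p = 0.00242). Nmd3, the adaptor that carries the large subunit out of the nucleus, went from 34.1 and 37.98 to 80.99 and 70.6 FPKM (1.05 ± 0.12, SE, limma, adjusted p = 0.00266). In these 3 genes every double-knockdown value was above both controls, and the call was kept whichever library was left out. Bysl (from 17.7 and 21.04 to 41.1 and 35.3 FPKM) and Heatr1 (from 48.5 and 55.3 to 97.2 and 92.2 FPKM), both of the small-subunit processome, rose by 0.95 and 0.86 and also kept their calls. Cd3eap, a subunit of RNA polymerase I, rose from 10.99 and 13.8 to 27.6 and 24.5 FPKM (1.02 ± 0.13, SE, limma, adjusted p = 0.00293), and Polr1a, its largest subunit, by 0.98, a call lost without siNT replicate 1 or both-siRNA replicate 1 (adjusted p up to 0.0748). Ddx55 and Mak16, a helicase and an assembly factor of the large subunit, rose by 1.01 and 0.97, with calls lost without siNT replicate 1 or both-siRNA replicate 1 (adjusted p up to 0.0603) and without siNT replicate 1 (adjusted p up to 0.0516).

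Promoters of the assembly genes were searched for the E-box CACGTG, the letters bound by Myc, Max and related factors, on both strands, in windows of 250 bases before to 50 bases after the start (RefSeq, GRCm38.p6). Among all 27025 genes with a window 8.09% hold it, and among the 9697 tested genes with a window 12.2%. Of 30 small-subunit assembly genes with a window 9 hold it (30%), among them 8 of the 21 that rose (38.1%), and of 40 large-subunit assembly genes 8 do (20%). Of 22 polymerase I and nucleolar genes 2 do (9.09%). A match describes letters only. The stretches before the start of 4 genes that rose are shown with the E-box in capitals, 5′ to 3′ on the gene's strand, because they carry the same letters at unlike distances from the start:
Nmd3 (chr3:69721916-69721971, plus strand): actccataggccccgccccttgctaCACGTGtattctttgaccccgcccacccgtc
Imp4 (chr1:34439683-34439738, plus strand): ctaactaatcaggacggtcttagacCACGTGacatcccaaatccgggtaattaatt
Nol11 (chr11:107189394-107189449, minus strand): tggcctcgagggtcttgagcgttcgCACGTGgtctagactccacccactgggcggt
Nop2 (chr6:125131798-125131853, plus strand): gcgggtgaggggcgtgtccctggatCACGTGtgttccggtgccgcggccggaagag
The E-box begins 114 bases before the start in Nmd3, 121 in Imp4, 43 in Nol11 and 60 in Nop2. Imp4 rose by 0.60, Nol11 by 0.71 and Nop2 by 0.42 (limma, adjusted p = 0.0162, 0.0036 and 0.0132), all chosen after their values were seen.

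Among genes of the Myc network, Mycn rose from 46.00 and 40.1 to 156 and 122 FPKM (1.66 ± 0.16, SE, limma, adjusted p = 0.00218), with no overlap, and kept its call without each library. Myc did not pass, at 7.35 and 14.8 FPKM with siNT and 14.1 and 13.3 FPKM with both (0.36 ± 0.28, SE, limma, adjusted p = 0.327). Odc1, the first enzyme of polyamine synthesis and a known Myc target, went from 328 and 362 to 654 and 573 FPKM (0.83 ± 0.11, SE, limma, adjusted p = 0.00331). Mxd3, a Max partner that represses, fell, at -0.82, a call lost without siNT replicate 1, siNT replicate 2 or both-siRNA replicate 1 (adjusted p up to 0.202). Of the 21 members tested 6 were higher and 3 lower, beside 16.6% and 25% of all genes, with a median of 0.19. The higher count was 3 and the lower 0 without siNT replicate 1 or without replicate 1 of the double knockdown, and 7 and 1 without siNT replicate 2.

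Among translation factors, which start, extend and end protein chains, 42 genes were tested. Of these 14 were higher and 4 lower, beside 16.6% and 25% of all genes, with a median of 0.08. Eif3e, a subunit of the factor that readies the small subunit for mRNA, went from 62.3 and 72.5 to 158 and 137 FPKM (1.12 ± 0.13, SE, limma, adjusted p = 0.00266). Eif1, which helps select the start codon, went from 311 and 315 to 708 and 586 FPKM (1.04 ± 0.19, SE, limma, adjusted p = 0.00658), and Eif5, which triggers GTP hydrolysis at that step, rose by 1.00, a call lost without siNT replicate 1 or both-siRNA replicate 1 (adjusted p up to 0.0758). The 4 that fell were Eif4a2, Eif2s2, Eif2b3 and Eif3c, at -0.82, -0.76, -0.63 and -0.47. The higher count was 5, 10 and 4 without siNT replicate 1, siNT replicate 2 and replicate 1 of the double knockdown, and the lower 2, 1 and 1.

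Mitochondrial ribosome, proteasome and heat shock counts are given beside 16.6% higher and 25% lower of all genes. Of 76 mitochondrial ribosomal protein genes, which encode a separate ribosome, 28 were higher, 3 lower (Mrpl24, Mrps17 and Mrpl41) and 45 did not pass, with a median of 0.24. In the second table, 39 of them had a change above 0 and 36 below, beside a median of -0.13 over all genes there. Mrpl52 went from 134 and 121 to 258 and 233 FPKM (0.94 ± 0.10, SE, limma, adjusted p = 0.00264) and Mrps18c from 45.7 and 49.2 to 99.4 and 84.6 FPKM (0.94 ± 0.11, SE, limma, adjusted p = 0.00266). The higher count was 5, 15 and 6 without siNT replicate 1, siNT replicate 2 and replicate 1 of the double knockdown. Proteasome genes had 10 higher and 1 lower (Psmd3) of 37, with a median of -0.01 that was 0.06 after median-ratio rescaling. Psmc5 and Psmc6, ATPases of the base that unfolds substrates, went from 101 and 114 to 195 and 177 FPKM (0.79 ± 0.11, SE, limma, adjusted p = 0.00331) and from 62.7 and 65.4 to 103 and 98.1 FPKM (0.64 ± 0.09, SE, limma, adjusted p = 0.00362). Heat shock and chaperonin genes had 4 higher (Cct8, Hspa4, Dnaja1 and Chordc1) and 3 lower (Hspb1, Dnajb1 and Hspa8) of 30, with 0 and 0 without replicate 1 of the double knockdown. Nothing is read from the heat shock counts for that list. Proteasome counts were 3, 6 and 2 higher without the same 3 libraries, and heat shock counts 0, 3 and 0 higher.

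Of 30 tested genes of naive pluripotency 19 were lower and 4 higher, against 25% and 16.6% of all genes, with a median of -0.89, the lowest of the 33 lists. Without siNT replicate 1, siNT replicate 2 and replicate 1 of the double knockdown the lower counts were 13, 16 and 12 and the higher count was 1. Tfcp2l1, a transcription factor of the naive network, was at 84.4 and 91.4 FPKM with siNT and 18.2 and 31.5 FPKM with both siRNAs (-1.83 ± 0.25, SE, limma, adjusted p = 0.00331). Klf4, which acts downstream of leukemia inhibitory factor, went from 77.3 and 78.02 to 27.7 and 34.8 FPKM (-1.30 ± 0.13, SE, limma, adjusted p = 0.00218). Nanog, counted in the core list below but most active in the naive state, went from 349 and 378 to 121 and 182 FPKM (-1.29 ± 0.19, SE, limma, adjusted p = 0.00376). All 3 were lower in each double-knockdown library than in each control, and none lost its call when a library was left out. Jam2, a surface junction protein, went from 34.4 and 49.7 to 15.04 and 14.2 FPKM (-1.44 ± 0.20, SE, limma, adjusted p = 0.00331), and Spp1, osteopontin, from 531 and 409 to 116 and 187 FPKM (-1.66 ± 0.32, SE, limma, adjusted p = 0.00732), a call lost without siNT replicate 1 (adjusted p up to 0.0623).

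Prdm14, Esrrb, Tbx3 and Zfp42 of the same network fell, at -1.43, -1.24, -1.14 and -1.08. Socs3, Pim1 and Pim3, which Stat3 signalling is known to induce, fell, at -1.07, -0.81 and -0.61. Stat3 itself rose by 0.49, and Lifr, the receptor gene of leukemia inhibitory factor, stood at 13.6 and 14.03 FPKM with siNT and 13.05 and 14.7 FPKM with both, a difference of 0.00 ± 0.12 (SE, limma, adjusted p = 0.997). The other members that rose were Rex2, Fbxo15 and Dppa3, by 0.38, 0.44 and 0.57. Of 29 naive genes tested in the second table, 26 had a negative change, with a median of -0.93 beside -0.13 for all genes there.

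Pou5f1 and Sox2, the core factors that naive and primed cells share, did not pass as lower. Pou5f1 (Oct4) was at 945 and 950.2 FPKM with siNT and 1086 and 948 FPKM with both siRNAs (0.10 ± 0.12, SE, limma, adjusted p = 0.521). Sox2 was at 224 and 219 FPKM with siNT and 256 and 294 FPKM with both, a difference of 0.31 ± 0.11 (SE, limma, adjusted p = 0.0465) that did not pass when any one of the 8 libraries was left out. Of 18 genes in the core list 10 were higher and 4 lower, against 16.6% and 25% of all genes, with a median of 0.48. The 4 were Nanog, Zfp42, Mybl2 and Tdgf1. Lin28a, an RNA-binding protein that blocks let-7 maturation, went from 71.2 and 83.1 to 317 and 219 FPKM (1.76 ± 0.22, SE, limma, adjusted p = 0.00267), and Sall4, a zinc-finger partner of Pou5f1, from 40.3 and 42.4 to 118 and 96.7 FPKM (1.35 ± 0.15, SE, limma, adjusted p = 0.00266). Dppa2 and Trim71 rose by 1.22 and 1.20. The higher counts were 6, 8 and 4 without siNT replicate 1, siNT replicate 2 and replicate 1 of the double knockdown, and the lower count was 2 without each.

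Of 21 tested primed epiblast genes (26 symbols listed) 14 were higher and 3 lower, against 16.6% and 25% of all genes. Their median was 0.71, the highest of the 33 lists. The filter kept a gene at 1 FPKM or more in 2 of the 8 libraries, so a gene high only with an siRNA could enter through that group. Otx2, a homeobox factor that marks the exit from the naive state, was at 9.17 and 12.6 FPKM with siNT and 101 and 83.02 FPKM with both (2.98 ± 0.17, SE, limma, adjusted p = 0.000727). Pim2, a kinase gene, went from 12.4 and 11.4 to 181 and 70.1 FPKM (3.14 ± 0.55, SE, limma, adjusted p = 0.00656) and Sall2, a zinc-finger gene, from 2.33 and 2.86 to 33.6 and 14.1 FPKM (2.68 ± 0.45, SE, limma, adjusted p = 0.0052). The 2 groups did not overlap for any of the 3, although Pim2 and Sall2 were more than 2-fold higher in replicate 1 than in replicate 2. Lef1, a transcription factor of Wnt signalling, went from 3.92 and 5.13 to 23.5 and 17.2 FPKM (1.94 ± 0.33, SE, limma, adjusted p = 0.00549). The de novo DNA methyltransferase genes Dnmt3a and Dnmt3b rose by 1.49 and 1.45, and Zic2 and Pou3f1 by 1.59 and 1.44. Igfbp2, Bex1 and Tcf15 fell, at -1.20, -0.65 and -0.64. The higher counts were 9, 11 and 9 without siNT replicate 1, siNT replicate 2 and replicate 1 of the double knockdown.

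**Figure D3:**
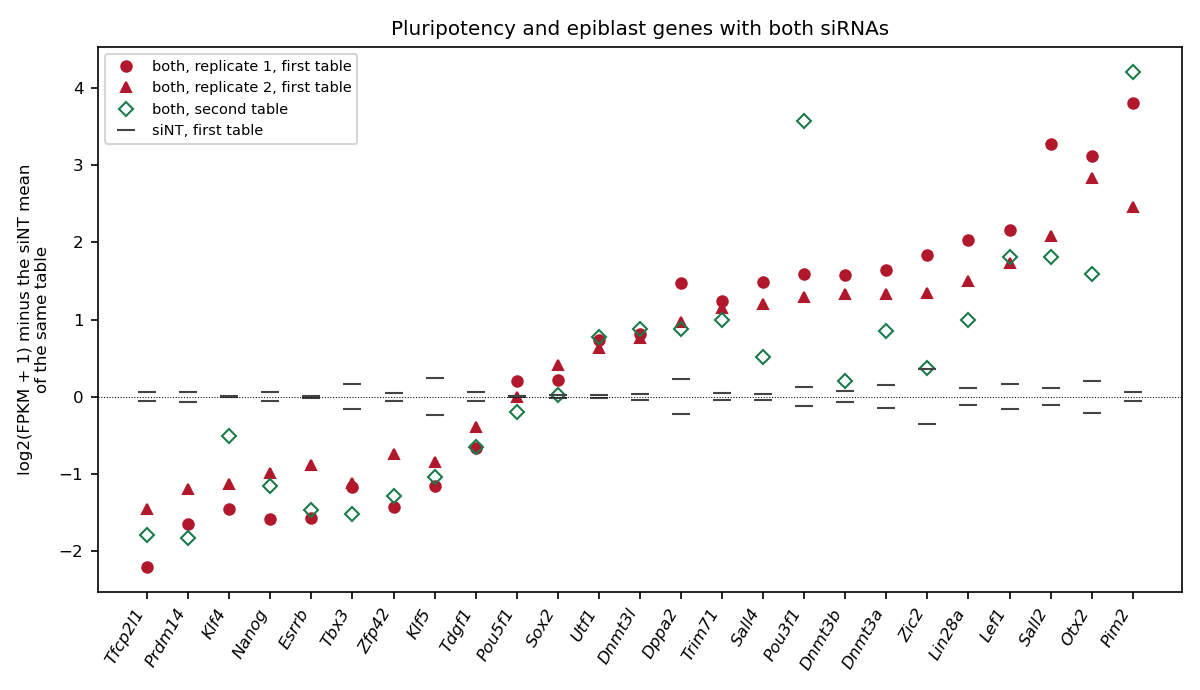
Difference of log2(FPKM + 1) from the siNT mean of the same table for 25 pluripotency and epiblast genes; red circles and triangles are the 2 double-knockdown libraries of the first table, open green diamonds the 1 of the second, and dashes the 2 controls of the first. Tfcp2l1 and Nanog lie below 0 and Otx2, Sall2 and Pim2 above 0 in all 3 libraries, while Pou5f1 lies near 0.

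Of 33 tested genes of signalling pathways 9 were higher and 9 lower, beside 16.6% and 25% of all genes, and nothing is read from these counts for the list. Inhbb, a subunit of activin and inhibin, was at 30.4 and 36.7 FPKM with siNT and 4.11 and 5.63 FPKM with both (-2.56 ± 0.19, SE, limma, adjusted p = 0.00197). Lefty1, a target of Nodal signalling, went from 20.7 and 22.3 to 79.1 and 83.4 FPKM (1.87 ± 0.10, SE, limma, adjusted p = 0.00057). Lefty1 had the smallest adjusted p of all genes in this comparison. In the second table it stood at 12.9 and 13.3 FPKM in the controls and 16.1 FPKM with both, a smaller change of 0.27 ± 0.57 (SE). Bmp4 fell from 27.3 and 37.5 to 7.89 and 13.3 FPKM (-1.55 ± 0.23, SE, limma, adjusted p = 0.00404). Fgf4, the fibroblast growth factor made by stem cells, fell, at -0.85. Of the feedback genes of that pathway Spry4 and Spry1 fell, at -0.97 and -0.49, and Dusp4, Dusp6, Spry2 and Etv1 rose, by 1.39, 0.85, 0.80 and 1.42. The counts were 3 higher and 4 lower without siNT replicate 1, 7 and 3 without siNT replicate 2, and 4 and 3 without replicate 1 of the double knockdown.

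Markers of other cell types were low in every library. The 6 embryonic stem cell markers (Pou5f1, Sox2, Nanog, Zfp42, Utf1 and Tdgf1) summed to 3386 to 3406 FPKM with siNT and 2797 to 2979 FPKM with both. The 8 fibroblast or feeder markers summed to 15.5 FPKM in each control and 4.64 to 6.12 FPKM with both, nearly all of it Thy1, and Dcn, Lum and Postn were at 0 in all of these libraries. The 8 trophectoderm markers summed to 15.8 to 18.1 FPKM and 9.52 to 10.8 FPKM, the 6 primitive endoderm markers to 2.74 to 3.99 FPKM and 2.63 to 6 FPKM, and the 6 early neural and mesoderm markers to 6.64 to 7.08 FPKM and 7.83 to 11.1 FPKM. The summed fibroblast and trophectoderm levels were lower with both siRNAs, and the neural and mesoderm sum higher, without overlap. In that last sum the neural gene Pax6 rose, from 1.91 and 1.75 FPKM to 5.28 and 3.98 FPKM. Eomes fell, from 2.65 and 2.59 FPKM to 1.81 and 1.94 FPKM. Mixl1 and Kdr, under 1 FPKM in all of these libraries, were also lower without overlap, and Sox1 and T overlapped. In the trophectoderm sum Krt8, Krt18, Eomes and Elf5 were lower without overlap, and Cdx2, Krt7 and Hand1 overlapped. Gata3, also under 1 FPKM, went the other way, from 0.0838 and 0.0878 FPKM to 0.976 and 0.429 FPKM. Whether these low levels had a part in the changes above was not tested.

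The longer lineage lists are given beside 16.6% higher and 25% lower of all genes. Of 12 tested neural and mesendoderm genes (26 symbols listed) 5 were higher (among them Nes, Pax6, Sox11 and Lefty1) and 1 (Cdx1) lower, with higher counts of 3, 4 and 4 without siNT replicate 1, siNT replicate 2 and replicate 1 of the double knockdown. Of 14 trophectoderm genes 1 (Fgfr2) was higher and 5 (Bmp4, Tead4, Krt19, Krt8 and Krt18) lower, and 2 were lower without any one of those 3 libraries. Tead4, which specifies trophectoderm, went from 8.14 and 9.004 to 2.51 and 3.78 FPKM (-1.22 ± 0.18, SE, limma, adjusted p = 0.00385). Of 16 primitive endoderm genes 1 (Lrp2) was higher and 3 (P4ha2, Lama1 and Lamc1) lower. Lrp2, the endocytic receptor megalin, went from 3.85 and 5.80 to 30.9 and 15.3 FPKM (1.99 ± 0.37, SE, limma, adjusted p = 0.00699), a call lost without siNT replicate 1 (adjusted p up to 0.0603). Of 9 fibroblast genes 2 (Thy1 and Loxl1) were lower, and Thy1 went from 14.97 and 15.2 to 4.47 and 5.79 FPKM (-1.40 ± 0.23, SE, limma, adjusted p = 0.00519).

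Genes of the integrated stress response and of amino acid supply were examined next. In that response, kinases that sense stress or missing amino acids slow translation initiation while raising the factor Atf4, which activates genes for amino acid synthesis, transport and tRNA charging. Atf4 mRNA did not pass, at 141 and 169 FPKM with siNT and 169.7 and 131 FPKM with both (-0.05 ± 0.21, SE, limma, adjusted p = 0.86). Of 25 genes of amino acid synthesis and transport 18 were lower and 2 higher, against 25% and 16.6% of all genes, with a median of -0.81. Of 24 regulators and targets of the response 12 were lower and 2 higher, with a median of -0.62, and of 22 tRNA synthetase genes 11 were lower and 2 (Farsb and Aimp2) higher, with a median of -0.40. The lower counts of the 3 lists were 7, 6 and 8 without siNT replicate 1, 9, 6 and 8 without siNT replicate 2, and 7, 7 and 6 without replicate 1 of the double knockdown.

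Atf4 and its partners are known to bind the C/EBP-ATF response element, searched here as TGATGNAA on both strands in the same promoter windows. It is in 4.51% of the 27025 genes with a window and 2.57% of the 9697 tested genes with one, in 6 of 20 amino acid genes (30%), 5 of which fell, and in 7 of 20 genes of the stress response list (35%), 5 of which fell. The lists were made up largely of known Atf4 targets, so this is no independent evidence. TGATGNAA and CACGTG can overlap by at most the few letters at their ends. The stretches of 5 genes that fell are shown with the element in capitals, because the same letters recur near their starts, read as TGATGNAA in Asns, Pycr1 and Jdp2 and on the opposite strand in Nupr1 and Herpud1:
Asns (chr6:7693210-7693257, minus strand): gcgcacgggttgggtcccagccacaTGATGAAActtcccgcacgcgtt
Pycr1 (chr11:120643819-120643876, minus strand): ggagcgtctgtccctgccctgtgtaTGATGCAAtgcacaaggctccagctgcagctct
Jdp2 (chr12:85599358-85599415, plus strand): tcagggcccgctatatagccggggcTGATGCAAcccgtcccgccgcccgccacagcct
Nupr1 (chr7:126625548-126625605, minus strand): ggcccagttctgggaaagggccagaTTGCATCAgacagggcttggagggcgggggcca
Herpud1 (chr8:94386292-94386349, plus strand): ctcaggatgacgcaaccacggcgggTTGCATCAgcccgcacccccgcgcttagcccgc
Asns, asparagine synthetase, went from 295 and 282 to 69.7 and 105 FPKM (-1.74 ± 0.28, SE, limma, adjusted p = 0.00482). Jdp2, a repressor that pairs with Atf factors, went from 7.96 and 8.64 to 0.861 and 1.39 FPKM (-2.14 ± 0.16, SE, limma, adjusted p = 0.00197). Nupr1, a small stress-induced nuclear protein, went from 72.2 and 65.98 to 9.09 and 14.3 FPKM (-2.49 ± 0.37, SE, limma, adjusted p = 0.00382). Each of the 3 was lower in both double-knockdown libraries and kept its call without each library. Pycr1, the last enzyme of proline synthesis, fell from 28.96 and 27.8 to 3.34 and 7.56 FPKM (-2.27 ± 0.44, SE, limma, adjusted p = 0.00781), a call lost without siNT replicate 1 (adjusted p up to 0.0582), and Herpud1, of the endoplasmic reticulum stress response, at -0.57.

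Phgdh, the first enzyme of serine synthesis, fell from 149.6 and 149 to 26.2 and 55.6 FPKM (-1.94 ± 0.48, SE, limma, adjusted p = 0.0163), a call lost without siNT replicate 1, siNT replicate 2 or both-siRNA replicate 1 (adjusted p up to 0.107). Its pathway partners Psat1 and Psph fell, at -1.15 and -1.22, and the mitochondrial folate enzyme Mthfd2 at -1.07. Ndrg1 fell, at -1.91, a call lost without siNT replicate 1 or siNT replicate 2 (adjusted p up to 0.062). Among the synthetases Cars, for cysteine, went from 53.9 and 58.3 to 25.1 and 28.3 FPKM (-1.05 ± 0.11, SE, limma, adjusted p = 0.00244) and Nars, for asparagine, from 197 and 198 to 95.4 and 107 FPKM (-0.96 ± 0.15, SE, limma, adjusted p = 0.00404), both without overlap. Sars, for serine, fell, at -1.15, a call lost without siNT replicate 1, siNT replicate 2 or both-siRNA replicate 1 (adjusted p up to 0.119). The amino acid transporters Slc38a2 and Slc7a3 rose, by 1.24 and 0.61, as did Sesn2 and Ppp1r15a of the stress response, by 0.71 and 0.92.

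Sterol and fatty acid synthesis genes fell without exception among those that passed. Of 32 tested genes 23 were lower and none higher, against 25% and 16.6% of all genes, with a median of -0.59. Without siNT replicate 1, siNT replicate 2 and replicate 1 of the double knockdown 10, 10 and 8 were lower. Insig1, which holds back the sterol-regulated factor Srebp in the endoplasmic reticulum and is itself its target, went from 53.6 and 55.6 to 14.9 and 21.6 FPKM (-1.55 ± 0.19, SE, limma, adjusted p = 0.00267). Scd1, which desaturates fatty acids, went from 33.5 and 43.9 to 10.97 and 17.9 FPKM (-1.39 ± 0.23, SE, limma, adjusted p = 0.00521). In both the groups did not overlap and the call was kept without each library. Sqle, which makes squalene epoxide, fell, at -0.79, and the factor genes Srebf2 and Srebf1 at -1.19 and -0.62. A search for TCACNCCAC, letters of a sterol regulatory element, is void, since 22 of the 32 genes had a promoter window. Hmgcs1 was not analysed here.

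Genes of glycolysis and the hypoxia response were also lower or did not pass. Of 31 tested 14 were lower and none higher, against 25% and 16.6% of all genes, with a median of -0.73. Vegfa, the angiogenic factor and a classic hypoxia target, was at 32.6 and 37.4 FPKM with siNT and 4.72 and 7.96 FPKM with both (-2.33 ± 0.25, SE, limma, adjusted p = 0.00264), and kept its call without each library. Aldoc and Pfkp, glycolytic enzymes, went from 34.7 and 27.8 to 3.55 and 11.98 FPKM (-2.06 ± 0.57, SE, limma, adjusted p = 0.0244) and from 245 and 251 to 43.6 and 99.3 FPKM (-1.90 ± 0.46, SE, limma, adjusted p = 0.0158). Their 2 double-knockdown values differed more than 2-fold, and the Aldoc call was lost without siNT replicate 1, siNT replicate 2 or both-siRNA replicate 1 (adjusted p up to 0.145) and the Pfkp call without the same libraries (adjusted p up to 0.0949). Gapdh did not pass, at 4093 and 3748 FPKM with siNT and 3146 and 3384 FPKM with both (-0.26 ± 0.17, SE, limma, adjusted p = 0.233). The lower counts were 2, 5 and 4 without siNT replicate 1, siNT replicate 2 and replicate 1 of the double knockdown, and 20 without its replicate 2.

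The p53 gene and part of its known targets rose. Trp53 was at 143 and 177 FPKM with siNT and 589.6 and 428 FPKM with both siRNAs (1.65 ± 0.26, SE, limma, adjusted p = 0.00461), without overlap and also when any library was left out. Mdm2, both target and inhibitor of p53, went from 66.01 and 47.7 to 156 and 121 FPKM (1.28 ± 0.28, SE, limma, adjusted p = 0.0107), a call lost without siNT replicate 2 or both-siRNA replicate 1 (adjusted p up to 0.0737). Of 11 feedback genes 7 were higher and none lower, against 16.6% and 25% of all genes, with a median of 0.61. But 3, 2 and 1 were higher without siNT replicate 1, siNT replicate 2 and replicate 1 of the double knockdown. Rchy1, a ubiquitin ligase for p53, rose from 23.7 and 20.8 to 50.5 and 40.1 FPKM (0.99 ± 0.18, SE, limma, adjusted p = 0.00628).

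Counts of the effector targets went both ways and are given beside 16.6% higher and 25% lower of all genes. Nothing is read from them for the 3 lists. Of 16 cell cycle arrest genes 5 were higher and 2 (Ccng2 and Gadd45b) lower, of 22 cell death genes 5 higher and 3 (Bcl2l11, Trp53i13 and Trp53i11) lower, and of 33 genes of repair and metabolism 8 higher and 9 lower. Their medians were 0.37, 0.07 and -0.02, and the last was 0.05 and 0.07 under the other scalings, under which the death genes had 7 higher and 1 lower, or 6 and 0. Plk2, a polo-like kinase, went from 20.3 and 11.5 to 87.4 and 65.5 FPKM (2.23 ± 0.33, SE, limma, adjusted p = 0.00382), and Fas, the death receptor, from 0.475 and 0.182 to 3.20 and 2.12 FPKM (1.46 ± 0.26, SE, limma, adjusted p = 0.00607), both without overlap and with the call kept. Perp, an effector of death at the membrane, went from 14.4 and 10.1 to 42.9 and 32.5 FPKM (1.55 ± 0.36, SE, limma, adjusted p = 0.0134), a call lost without siNT replicate 1, siNT replicate 2 or both-siRNA replicate 1 (adjusted p up to 0.088). Cdkn1a (p21), an inhibitor of the cell cycle, did not pass, at 77.2 and 63.5 FPKM with siNT and 67.1 and 52.2 FPKM with both (-0.24 ± 0.28, SE, limma, adjusted p = 0.514), and the groups overlapped. Sesn1, Gdf15, Ddb2 and Xpc, also known p53 targets, fell, at -1.07, -1.54, -0.91 and -0.76. Higher counts of the 3 lists without siNT replicate 1, siNT replicate 2 and replicate 1 of the double knockdown were 1, 1 and 1 for arrest, 1, 1 and 1 for death, and 4, 2 and 2 for repair and metabolism.

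The 2C-like genes were compared with siNT as well. Of 62 symbols listed 49 are in the table and 32 passed the filter on low values, 22 of them also without the siRpl14 libraries. The others entered only through siRpl14 and were low in the libraries compared here, yet they count in the 32 and in the median. Of the 32, 3 (Tmem92, Usp17lb and Zfp750) were higher and 3 (Zscan4a, Zscan4f and Zscan4d) lower, beside 16.6% and 25% of all genes. The median was 0.09, and nothing is read from these counts for the list. Zscan4d, the marker of the 2C-like state, was at 11.3 and 12.7 FPKM with siNT and 9.42 and 8.93 FPKM with both (-0.35 ± 0.12, SE, limma, adjusted p = 0.0411), which did not pass in any fit that left out a library. Zscan4c was at 10.6 and 8.96 FPKM with siNT and 8.41 and 7.73 FPKM with both (-0.25 ± 0.12, SE, limma, adjusted p = 0.139), and Dux, the activator of the 2-cell program, at 0.368 and 0.202 FPKM with siNT and 0.524 and 0.687 FPKM with both (0.32 ± 0.15, SE, limma, adjusted p = 0.113). Members of the Zscan4 and Usp17 families are near-identical copies, so their single values are uncertain. After median-ratio rescaling 5 were higher and 1 lower, and after quantile normalization 5 and 0, and without siNT replicate 1 or replicate 1 of the double knockdown 1 and 0.

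Of 43 S phase genes 6 were higher and 9 lower, beside 16.6% and 25% of all genes, with a median of -0.22, and of 36 mitosis genes 3 (Kif11, Ect2 and Ndc80) higher and 9 lower, with a median of -0.13. Nothing is read from these counts for the lists. Hells, a chromatin remodeller, rose from 31.5 and 41.1 to 78.9 and 75.96 FPKM (1.08 ± 0.15, SE, limma, adjusted p = 0.00327), and E2f1, an activator of S phase genes, fell from 32.2 and 30.98 to 15.3 and 19.2 FPKM (-0.84 ± 0.17, SE, limma, adjusted p = 0.00822), a call lost without siNT replicate 1 or both-siRNA replicate 1 (adjusted p up to 0.0606). Without siNT replicate 1, siNT replicate 2 and replicate 1 of the double knockdown the S phase counts were 2, 4 and 1 higher and 1, 2 and 1 lower, and the mitosis counts 1, 0 and 0 higher and 0, 1 and 0 lower. Of 39 tested histone genes 2 (Hist1h1a and Hist1h2bl) were higher and 7 lower, with a median of -0.02 that was 0.04 and 0.16 under the other scalings, and lower counts of 3, 5 and 4 without the same 3 libraries. The linker histone gene Hist1h1c went from 29.97 and 22.2 to 5.53 and 8.47 FPKM (-1.77 ± 0.22, SE, limma, adjusted p = 0.00281), without overlap, and kept its call without each library. Replication-dependent histone mRNAs have no poly(A) tail and the libraries were made from mRNA, so these levels are uncertain.

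The germline and interferon response lists are given beside 16.6% higher and 25% lower of all genes, and nothing is read from their counts. Of 19 germline genes 3 (Tex11, Mael and Hormad1) were higher and 7 lower. Only 3 or 4 were lower without siNT replicate 1, siNT replicate 2 or replicate 1 of the double knockdown. Stra8, which starts meiosis, went from 9.28 and 16.8 to 3.76 and 1.68 FPKM (-1.92 ± 0.43, SE, limma, adjusted p = 0.0114), a call lost without siNT replicate 2 (adjusted p up to 0.0792). Of 14 tested interferon response genes (32 listed) 2 (Irf1 and Cxcl10) were higher and 4 (Stat2, Oas1a, Oas1g and Oas3) lower, and 1 was lower without each of the same 3 libraries. Stat2, which carries the interferon signal, went from 10.2 and 10.6 to 2.97 and 5.04 FPKM (-1.22 ± 0.22, SE, limma, adjusted p = 0.00603) and kept its call.

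The 10 genes that rose most, among those with a group mean of at least 5 FPKM and no overlap, were Pim2, Otx2, Tspan8, Sall2, Vrtn, Nkx2-9, Foxi3, Gadd45g, Cd80 and Plk2. Tspan8, a tetraspanin, was at 0.804 and 0.505 FPKM with siNT and 12.01 and 8.49 FPKM with both (2.75 ± 0.26, SE, limma, adjusted p = 0.00218). Vrtn, vertnin, known for vertebral number, went from 0.677 and 0.588 to 10.6 and 7.21 FPKM (2.58 ± 0.22, SE, limma, adjusted p = 0.00197), and Nkx2-9, a homeobox gene, from 2.15 and 1.34 to 18.4 and 12.6 FPKM (2.58 ± 0.36, SE, limma, adjusted p = 0.00332). The controls of these 3 were at most 2.15 FPKM, so the scale understates these changes. Cd80, a costimulatory ligand that p53 is known to induce, went from 1.32 and 1.69 to 12.8 and 9.75 FPKM (2.29 ± 0.40, SE, limma, adjusted p = 0.00566). Foxi3 and Gadd45g rose by 2.52 and 2.44, with calls lost without siNT replicate 1, siNT replicate 2 or both-siRNA replicate 1 (adjusted p up to 0.0823) and, for Gadd45g, without the same libraries (adjusted p up to 0.0954).

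The 10 that fell most were Lrrc31, Tgm2, Inhbb, Nupr1, Cyp2s1, Vegfa, Kdelr3, Pycr1, Trf and Rpl11. Tgm2, tissue transglutaminase, was at 18.2 and 10.7 FPKM with siNT and 0.941 and 1.91 FPKM with both (-2.65 ± 0.30, SE, limma, adjusted p = 0.00266). Kdelr3, a receptor that returns proteins to the endoplasmic reticulum, went from 50.5 and 45.7 to 7.22 and 11.2 FPKM (-2.29 ± 0.19, SE, limma, adjusted p = 0.00197), and Trf, transferrin, from 15.1 and 13.7 to 1.57 and 3.001 FPKM (-2.26 ± 0.22, SE, limma, adjusted p = 0.00222). Cyp2s1, a cytochrome P450, fell, at -2.33 and Lrrc31 at -2.77, a call lost without siNT replicate 1 (adjusted p up to 0.0555). Apart from Lrrc31, Pycr1 and Rpl11, these calls were kept without each library.

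The pair was then set against each single siRNA. These comparisons share libraries with the one above, so values are given side by side. Against siNT 3822 genes passed with siRpl14 alone (31.5%, 18.1% higher and 13.4% lower) and 5377 with siRpl11 alone (44.3%, 16% higher and 28.4% lower). With siRpl11 alone 2704 were higher and 2703 lower after median-ratio rescaling and 2552 and 2399 after quantile normalization. Of the naive genes 10 were lower with siRpl14, 16 with siRpl11 and 19 with both, and of the primed genes 7, 13 and 14 were higher. Sterol genes had 19, 23 and 23 lower, amino acid genes 14, 18 and 18 lower, and small-subunit assembly genes 22, 28 and 24 higher. The change with both differed from the sum of the single changes for 544 genes (4.49%, 1.83% above and 2.65% below the sum), a count of 3 and 2 without siNT replicates 1 and 2.

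Against siRpl11 alone 0 of 12129 genes passed (limma), 387 (3.19%) had an unadjusted p under 0.05, and the smallest adjusted p was 1. Of 30 naive genes 9 had an unadjusted p under 0.05, with a median difference of -0.29 over the list, and of 32 2C-like genes 7 did, with a median of 0.21. The median half-width of the 95% interval was 0.34, and for 11821 genes (97.5%) the interval lay within a 2-fold change. Even Rpl14 did not pass: it was at 1465 and 1447 FPKM with siRpl11 and 232 and 524 FPKM with both, a difference of -2.06 (95% interval -3.03 to -1.09), unadjusted p = 0.0012, adjusted p = 1. So a large difference in 1 gene could go without a call, and the absence of calls does not show that the transcriptomes are alike. Lefty1 had the smallest unadjusted p, 0.000239, at 55.2 and 51.5 FPKM with siRpl11 and 79.1 and 83.4 FPKM with both. Otx2 differed by -0.10 (95% interval -0.49 to 0.30), Asns by -0.05 (95% interval -0.70 to 0.60), Nop58 by 0.05 (95% interval -0.32 to 0.42) and Mdm2 by 0.03 (95% interval -0.61 to 0.67).

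Depletion itself differed between libraries: Rpl14 was at 893 and 402 FPKM with siRpl14 alone and 232 and 524 FPKM with both, a difference of -0.78 ± 0.42 (SE, limma, adjusted p = 0.316) that did not pass, and Rpl11 at 260.1 and 113 FPKM with siRpl11 alone and 98.4 and 249 FPKM with both, -0.13 (95% interval -1.20 to 0.94). Whether unequal depletion had a part in the differences below was not tested. Against siRpl14 alone 878 genes passed (7.24%), 76 higher (0.627%) and 802 lower (6.61%). After median-ratio rescaling 124 were higher and 485 lower, after quantile normalization 106 and 357, and 345 passed in all with a mean of at least 5 FPKM. The count was 79 without siRpl14 replicate 2, 138 and 394 without replicates 1 and 2 of the double knockdown, and 497 and 493 without siNT replicates 1 and 2. Of the 32 tested 2C-like genes, 22 also pass the filter on low values in the 6 libraries without siRpl14 alone, a restriction added after seeing the data. Of those 22, 19 were lower with both than with siRpl14 alone, with a median difference of -1.61, and 17 to 19 were lower when any 1 library was left out. Zscan4d was at 35.7 and 36.2 FPKM with siRpl14, 7.02 and 8.11 FPKM with siRpl11 and 9.42 and 8.93 FPKM with both, against 11.3 and 12.7 FPKM with siNT. The difference of both siRNAs from siRpl14 alone was -1.86 ± 0.12 (SE, limma, adjusted p = 0.000961), and Usp17lb (15.3 and 14.01 FPKM with siRpl14, 4.15 and 3.38 FPKM with both) differed by -1.72 ± 0.14 (SE, limma, adjusted p = 0.00183). Both calls were kept without each library. The 2 siRpl14 libraries stood above the other 6 for both genes.

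The p53 targets were lower with both siRNAs than with siRpl14 alone where they differed. Lower were 2 of 11 feedback, 5 of 16 arrest, 5 of 22 death and 10 of 33 repair and metabolism genes, with none higher. Over all genes 6.61% were lower and 0.627% higher, so nothing is read from the absence of higher members. Mdm2 was at 244 and 410.3 FPKM with siRpl14, 114 and 159 FPKM with siRpl11 and 156 and 121 FPKM with both, and differed from siRpl14 alone by -1.20 ± 0.28 (SE, limma, adjusted p = 0.0419). Fas was at 7.37 and 12.5 FPKM with siRpl14, 2.51 and 1.94 FPKM with siRpl11 and 3.20 and 2.12 FPKM with both (-1.56 ± 0.26, SE, limma, adjusted p = 0.0147), and Perp at 87.4 and 210.4 FPKM with siRpl14, 29.4 and 32.2 FPKM with siRpl11 and 42.9 and 32.5 FPKM with both (-1.83 ± 0.36, SE, limma, adjusted p = 0.0245). These counts were 0, 1, 0 and 1 without siRpl14 replicate 2, 0, 2, 1 and 2 without replicate 1 of the double knockdown, 0, 2, 0 and 3 without its replicate 2, and 0, 3, 3 and 5 without either siNT library. The Mdm2 call was lost without siNT replicate 1, siNT replicate 2, siRpl14 replicate 2, both-siRNA replicate 1 or both-siRNA replicate 2 (adjusted p up to 0.185), the Perp call without the same 5 libraries and the Fas call without siRpl14 replicate 2 or both-siRNA replicate 2 (adjusted p up to 0.0906).

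Other genes lay beyond siRpl14 alone, and their counts are given beside 0.627% higher and 6.61% lower of all genes. Of 21 primed epiblast genes 7 were higher with both and none lower, but 0 passed without siRpl14 replicate 2, 2 without replicate 1 of the double knockdown and 4 without siRpl14 replicate 1. Otx2 was at 43.9 and 52.2 FPKM with siRpl14, 91.8 and 105 FPKM with siRpl11 and 101 and 83.02 FPKM with both, a difference from siRpl14 alone of 0.92 ± 0.17 (SE, limma, adjusted p = 0.0206), lost without siRpl14 replicate 1, siRpl14 replicate 2 or both-siRNA replicate 1 (adjusted p up to 0.126). Hist1h1c was at 27.5 and 36.5 FPKM with siRpl14, 9.07 and 10.3 FPKM with siRpl11 and 5.53 and 8.47 FPKM with both (-2.05 ± 0.22, SE, limma, adjusted p = 0.0042), and that call was kept without each library. Of 30 naive genes 4 were lower, among them Klf4 at 46.2 and 49.5 FPKM with siRpl14, 36.02 and 40.4 FPKM with siRpl11 and 27.7 and 34.8 FPKM with both (-0.61 ± 0.13, SE, limma, adjusted p = 0.0299). The Klf4 call was lost without siNT replicate 1, siNT replicate 2, siRpl14 replicate 1, siRpl14 replicate 2 or both-siRNA replicate 1 (adjusted p up to 0.194), and 2, 2, 0, 0 and 1 naive genes passed without siNT replicate 1, siNT replicate 2, siRpl14 replicate 2, replicate 1 of the double knockdown and siRpl14 replicate 1. No sterol, amino acid or small-subunit assembly gene passed as lower than with siRpl14 alone. No gene could pass as farther from siNT than with each single siRNA, since none passed against siRpl11 alone. Of the 5043 genes that passed against siNT, 31 lay farther at an unadjusted p under 0.05 against each single siRNA. Nothing is read from that count.

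**Figure D4:**
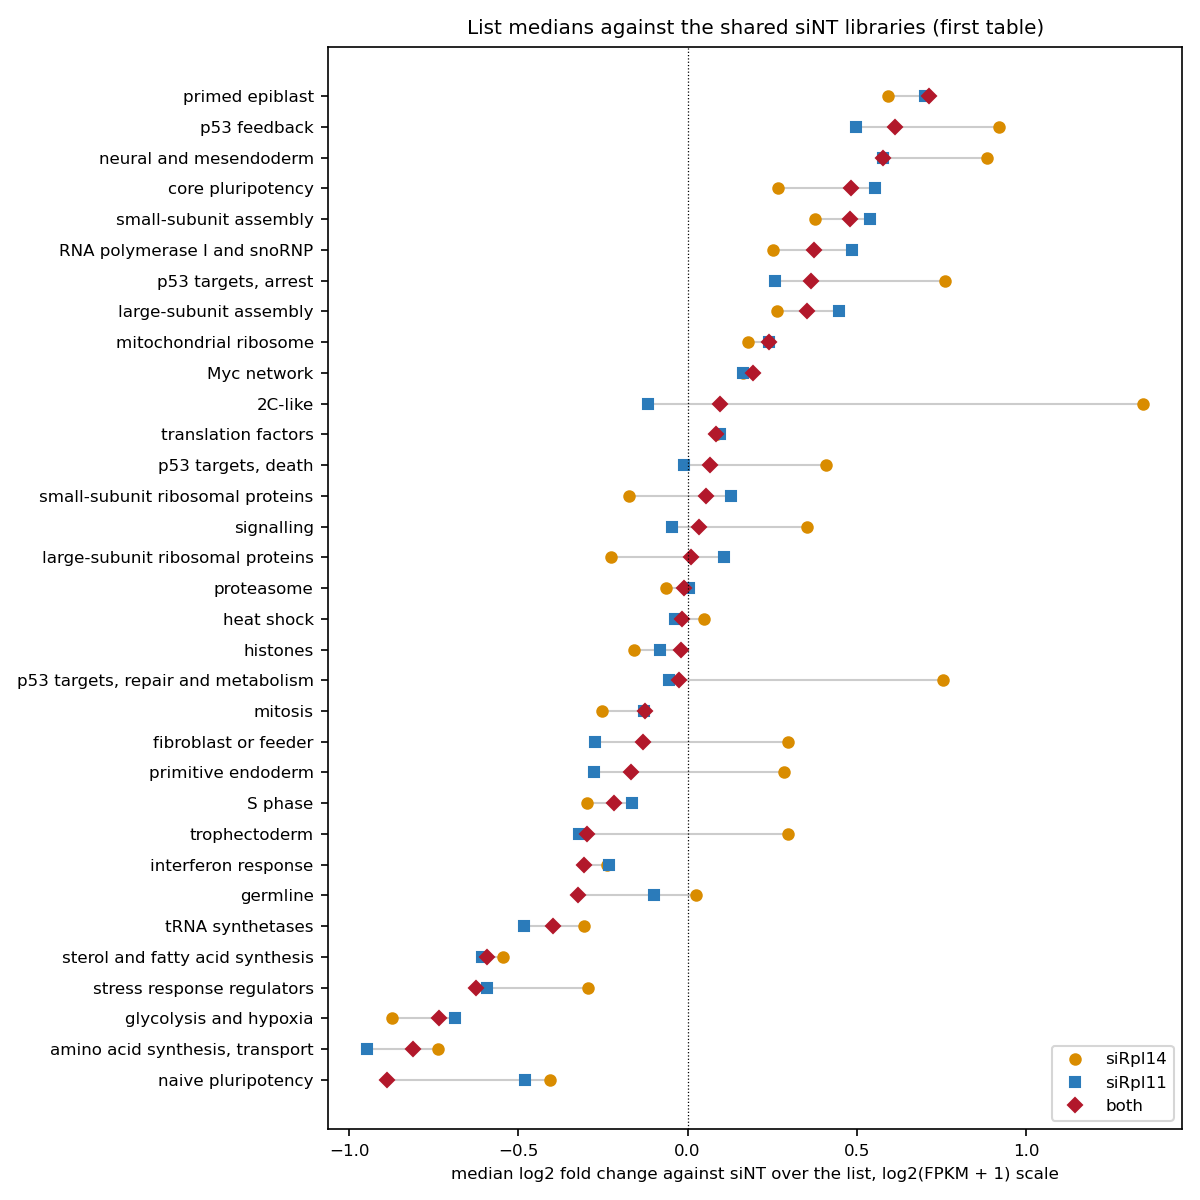
Median log2 fold change against the shared siNT libraries of 33 gene lists for siRpl14 (orange circles), siRpl11 (blue squares) and both (red diamonds), first table; the x axis is the difference of log2(FPKM + 1). For the naive list the medians are -0.41, -0.48 and -0.89, and the 2C-like medians include members that passed the filter on low values only through the siRpl14 libraries.

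The second table offered a check with other libraries, 1 with both siRNAs and 2 controls. The labels do not say how the 2 tables relate, so whether these libraries came from separate transfections is not known. Of 13497 genes tested 16 passed (0.119%), 6 higher (0.0445%) and 10 lower (0.0741%), and 1364 (10.1%) had an unadjusted p under 0.05. The lone library was assumed to vary like the groups with 2. Rpl14 and Rpl11 were among the 10 lower genes, with Tubb2b, Tmem64 and Rbfa, which also fell in the first table. Tmem64 was listed at 0 in the lone library, beside 12.95 and 15.5 FPKM in the controls. Naa10, Lamtor5 and Gm10865 were listed at 0 there too, as were 55.4% of all genes of that library. Ptger1, a prostaglandin receptor gene, was higher in both tables. Tsix, the antisense partner of Xist, was higher here and lower in the first table, and the sources used here do not give the strand setting of the counting. The remaining 9, such as Ccdc85b, Naa10 and Lamtor5, did not pass in the first table or were not tested there. The count was 10 and 5 without siNT replicates 1 and 2, 6 without either siRpl14 library, 7 without either siRpl14 plus siDux library and 8 without either siDux library. Rpl14, Rpl11 and Ccdc85b passed in all 9 fits that left out a library, while Tubb2b, Tmem64, Rbfa, Ptger1, Naa10 and Lamtor5 passed in 1 of the 9, the one without siRpl11, and Tsix in 3.

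Directions were compared gene by gene, since the tables share no library. Of 4696 genes that passed in the first table and were tested in both, 3328 (70.9%) had the same sign in the second, against 55.6% of 6584 genes that did not pass and 62% of all 11280. Among the 879 that changed at least 2-fold 689 did (78.4%), 232 of 292 that rose and 457 of 587 that fell. Across genes that passed, r was 0.467, where genes are not independent replicates. With a mean of at least 5 FPKM in each fit the share was 75.1%.

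Nanog was at 320.0 and 352 FPKM in the controls of the second table and 149 FPKM with both siRNAs, Tfcp2l1 at 73.2 and 59.1 FPKM in the controls and 18.3 FPKM with both, and Otx2 at 12.1 and 6.22 FPKM in the controls and 28.4 FPKM with both. Asns was at 90.6 and 69.1 FPKM in the controls and 8.66 FPKM with both, Insig1 at 38.6 and 30.1 FPKM in the controls and 14.4 FPKM with both, and Vegfa at 12.04 and 16.1 FPKM in the controls and 0.8 FPKM with both. All 6 lay outside the range of the 2 controls on the side seen in the first table, as did Trp53 (27.9 and 31.4 FPKM in the controls and 69.4 FPKM with both), Mdm2 (20.2 and 14.9 FPKM in the controls and 47.5 FPKM with both) and Nop58 (179.8 and 174 FPKM in the controls and 320.2 FPKM with both). None of these passed there. Cdkn1a lay above its controls, at 17.1 and 24.6 FPKM in the controls and 41.8 FPKM with both. For reference, 26% of tested genes lay above both controls and 37% below.

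Gene lists were then compared between the tables. List medians in the second table were -0.93 for naive genes, 0.75 for primed genes, -1.05 for amino acid genes, -0.95 for sterol genes and -0.99 for glycolysis, beside -0.13 for all genes. They were 0.35 for small-subunit assembly, 0.12 for polymerase I and nucleolar genes and 0.06 for large-subunit assembly. Of the 32 large-subunit assembly genes that passed in the first table, 23 had the same sign. Of all genes that passed there and were tested in both, 70.9% did. The median of translation factors was 0.08 in the first table and -0.08 in the second, that of 2C-like genes 0.09 and -0.41, that of the Myc network 0.19 and -0.02, and that of core pluripotency genes 0.48 and 0.02. Of 11 proteasome genes that passed in the first table, 5 had the same sign in the second. Nmd3 was at 90.97 and 78.4 FPKM in the controls and 107 FPKM with both, while Bysl, at 1025 and 1137 FPKM in the controls and 759.9 FPKM with both, lay below them. Among 2C-like genes Zscan4d was at 2.09 and 4.04 FPKM in the controls and listed at 0 with both, Zscan4c at 3.37 and 2.14 FPKM in the controls and 1.72 FPKM with both, and Dux was listed at 0 in all 3 libraries. Pou5f1 and Sox2 were at 639 and 95.3 FPKM with both, beside 789 and 677 FPKM and 96.04 and 91.7 FPKM in the controls. The summed embryonic stem cell markers were 1895 to 2010 FPKM in the controls and 1370 FPKM with both, and 6 of the 8 fibroblast markers were at 0 in both controls.

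**Figure D5:**
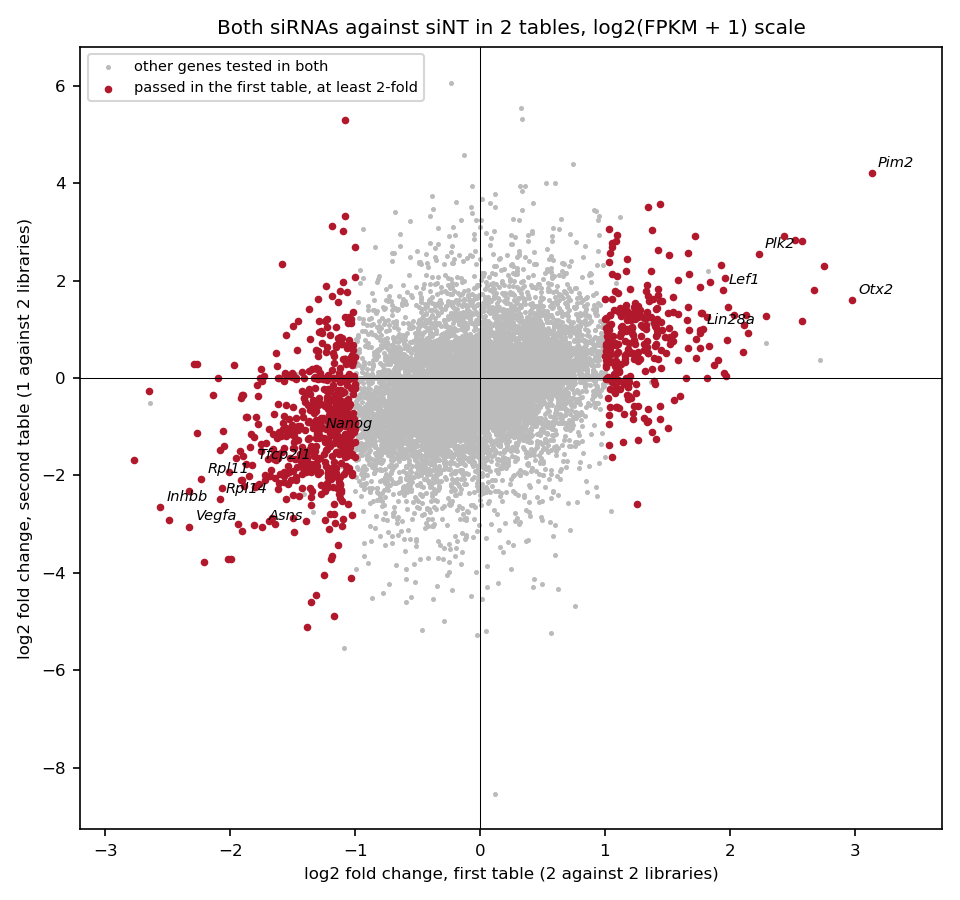
Log2 fold change of both siRNAs against siNT in the first table (x axis) and the second table (y axis) for genes tested in both; red points passed in the first table and changed at least 2-fold, grey points are the others. Of 879 red points 689 have the same sign on both axes, with Rpl14 and Rpl11 at the lower left and Pim2 and Otx2 at the right.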

How the data were processed

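RNA was sequenced from E14 cells in 22 libraries, per the labels, with a TruSeq stranded mRNA kit after DNase treatment. The authors deposited 2 tables of FPKM values for 24819 genes, 1 column per library, made with STAR and Cuffnorm on mm9, per the submitters' processing notes. The sources used here do not give versions, annotation, strand setting, library normalization or read depth, so no counting interval can be given. The tables were kept apart.

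Values were analysed as log2(FPKM + 1) with limma 3.58.1 (R 4.3.3, statmod 1.5.0), with a trended and robust prior and Benjamini-Hochberg adjustment at 0.05 over all genes tested. A gene was tested if it had at least 1 FPKM in 2 or more libraries of the fit. The fit of the first table used its 8 replicate-numbered libraries (siNT, siRpl14, siRpl11 and both, 2 each), with 4 residual degrees of freedom. The fit of the second used its 10 libraries, also with 4, and the lone double-knockdown library was assumed to vary like the groups with 2. The procedure was run on simulated data with independent noise in each library. In the real libraries replicate differences correlated between groups, so nothing is read from that run. Figures were drawn with matplotlib 3.10.9.

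The 33 gene lists (1088 entries, 1053 in the table) and the libraries were chosen with earlier results of these data known. Named genes are the targets, a fixed set of regulators, the 3 largest non-overlapping changes that passed in each list, and the 10 genes that rose and fell most with a mean of at least 5 FPKM in the higher group. Some genes that this rule names are not reported here. Other members are examples named after their values were seen. Alternatives were other pseudocounts (0.1 and 5), no filter, a mean of at least 5 FPKM, median-ratio rescaling, quantile normalization, plain empirical Bayes, a replicate block, other sets of libraries, and each library left out in turn, except the lone double-knockdown library of the second table. In that table the block and the omission of libraries other than siNT were added after seeing the data. Promoter windows came from RefSeq (GRCm38.p6), and 9697 of 12129 tested genes matched by symbol.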

Additional observations from a re-analysis of the deposited data

Results flagged for a closer look

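In the first table the 4 groups allow a test of whether the change with both siRNAs differed from the sum of the changes with each alone (limma, interaction term). It passed for 544 of 12129 genes (4.49%), 222 above the sum and 322 below it. All comparisons share the siNT libraries. The count was 3 and 2 without siNT replicates 1 and 2 and 1199 without siRpl14 replicate 1, so these values rest on single libraries. Each of the 30 named genes below lost its call without either siNT library.

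Among p53 targets the change with both lay below the sum of the single changes for Mdm2 (-2.44), Plk2 (-2.72), Perp (-3.11), Fas (-2.84), Cd80 (-3.22) and D630023F18Rik (-2.54) on the log2 scale. Among 2C-like genes, whose copies are uncertain, the values were -1.26 for Zscan4d, -1.11 for Zscan4c, -2.16 for Zfp750 and -1.81 for Usp17lb. Epiblast, pluripotency and homeobox genes gave -2.15 for Otx2, -1.10 for Sall4, -1.01 for Lefty1 and -3.08 for Nkx2-9. Mycn gave -1.36, Tspan8 -2.05, Hormad1 -1.80 and Chordc1 -1.12. The ribosome assembly genes Rrp12 and Nmd3 gave -0.84 and -0.89, and Mrps18c gave -0.71.

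For genes that fell, the sum of the single changes was more negative than the change with both. The interaction was 2.48 for Nupr1 and 1.58 for Jdp2, of the stress response, 1.70 for Insig1 and 1.60 for Scd1, of lipid synthesis, and 1.98 for Vegfa. It was 1.85 for Inhbb, 2.12 for Tgm2, 1.76 for Kdelr3 and 1.30 for the histone gene Hist3h2a.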

How the results depend on the processing

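Leaving out 1 library at a time gave 1307 to 5255 genes for both siRNAs against siNT, 79 to 670 (of 878) against siRpl14 alone, 0 to 1 against siRpl11 alone, 2 to 1199 (of 544) for the interaction and 5 to 16 (of 16) in the second table, where the lone double-knockdown library was kept. Against siRpl14 alone 345 genes passed with a mean of at least 5 FPKM, 463 after quantile normalization and 539 with the replicate block. The interaction gave 313 with no filter, 145 with a mean of at least 5 FPKM and 27 with the replicate block. For the second table, 57 genes passed with a pseudocount of 0.1, 32 with no filter, 44 with a mean of at least 5 FPKM, 10 after median-ratio rescaling, 8 with plain empirical Bayes and 45 with only the 3 libraries compared. The share of genes with the same sign in both tables was 75.1% with a mean of at least 5 FPKM and 72.6% with a pseudocount of 5. The causes were not tested.

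By the replicate differences across genes, the numbers were not taken to pair the samples, since not every pair of groups correlated above 0.1. The values were 0.248 for siNT with siRpl11, 0.178 for siNT with siRpl14 and 0.502 for siRpl11 with siRpl14, and -0.237, -0.501 and -0.493 for both siRNAs with siNT, siRpl11 and siRpl14. With the block 4451 genes passed against siNT, and 6877 with the numbers of the double knockdown crossed, chosen after seeing the data. In the second table the correlations were 0.0059 to 0.0386, and 23 genes passed with the replicate block (16 without it). Over the alternatives the values of named genes were on the same side of the threshold in 1990 cases, lost the call in 167 and gained it in 3, and none that had passed changed sign. Read depth is unknown, so what it limits could not be measured.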
